A study of Homo sapiens with 4 samples.

Results

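Genes of prostaglandin synthesis, breakdown and reception were compared between SW480 cells labelled as lacking IMP1 and wild-type SW480 cells. The 10 genes were PLA2G4A, PTGS1, PTGS2, PTGES, PTGES2, PTGES3, HPGD, PTGR1, PTGER2 and PTGER4, taken by symbol from the 19192 genes counted in each library. The pathway was selected on the RNA and footprint changes of its genes in these same libraries, so those changes are given as a description. SW480 is an established human colorectal adenocarcinoma line, labelled as intestinal epithelial. IMP1 is an RNA-binding protein encoded by IGF2BP1. There were 4 libraries, which were knockout-labelled (IMP1-/-) total RNA, knockout-labelled ribosome-protected fragments (RPF, also called footprints), wild-type total RNA and wild-type RPF. Each was a single library made from 3 pooled culture plates, so differences could not be checked between replicates, and the effect of genotype cannot be told apart from that of clone or culture. The labels do not say how IMP1 was removed or whether the cells are 1 clone. For wild-type RNA the cell line is given as SW840 in 1 field and SW480 in another, and the library was treated as SW480.

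Prostaglandins are lipid signals made from arachidonic acid. A cytosolic phospholipase frees the fatty acid from membranes, a cyclooxygenase turns it into an unstable intermediate, and a terminal synthase turns that into the final prostaglandin. Prostaglandin E is the main form in the colon, where it signals through Gs-coupled receptors that raise cyclic AMP and is cleared by oxidation and then reduction. In colorectal tumours the inducible cyclooxygenase PTGS2 is often raised and the dehydrogenase HPGD is often lost.

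Library totals lay between 3778316 and 5551479 counts. IGF2BP1 had 571 RNA reads in knockout-labelled cells and 598 in wild type, with 149 and 285 footprints in the same order. Loss of the transcript was therefore not seen in RNA, and the libraries are called knockout-labelled throughout. IGF2BP1 footprints were 1.91-fold lower in knockout-labelled cells, short of 2-fold. Its footprints relative to RNA were 2.03-fold lower, which was past 2-fold. Of 9 intestinal epithelial markers, EPCAM, KRT8, KRT18 and KRT19 had 1081 reads or more in every library, while KRT20 was at 0 in all of them and CDX1 had at most 2 reads. The microvillus gene VIL1 had 2 RNA reads in knockout-labelled cells and 160 in wild type, and 0 and 335 footprints in the same order. CDX2, an intestinal transcription factor, was also called lower in RNA (103 and 268 reads, with 72 and 108 footprints). The cadherin gene CDH1 was called higher, with 286 RNA reads in knockout-labelled cells and 83 in wild type and 275 and 88 footprints.

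The 250 bases upstream of the RefSeq start site nearest to the counted transcript are shown for PTGS1, PTGES and HPGD, the 3 members past 2-fold in RNA or footprints, and for PTGS2, which had almost no reads. Sequences are from RefSeq, build GRCh38.p14, 5′ to 3′ on the gene's strand. The windows are chr9:122370283-122370532 (plus strand) for PTGS1, chr9:129753043-129753292 (minus) for PTGES, chr4:174522894-174523143 (minus) for HPGD and chr1:186680424-186680673 (minus) for PTGS2. Capitals mark the letters of TATAAA (the box of core promoters), GGGCGG (bound by Sp1), CCAAT (bound by NF-Y), CTTTGA (core of the TCF/LEF motif) and CGTCA (core of the cyclic AMP response element), searched on both strands; none of the matches overlap.
PTGS1: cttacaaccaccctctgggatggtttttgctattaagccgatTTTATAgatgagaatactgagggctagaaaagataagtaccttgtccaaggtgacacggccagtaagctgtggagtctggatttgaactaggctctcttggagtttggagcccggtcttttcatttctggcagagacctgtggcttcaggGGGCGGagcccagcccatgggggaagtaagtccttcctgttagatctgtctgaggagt
PTGES: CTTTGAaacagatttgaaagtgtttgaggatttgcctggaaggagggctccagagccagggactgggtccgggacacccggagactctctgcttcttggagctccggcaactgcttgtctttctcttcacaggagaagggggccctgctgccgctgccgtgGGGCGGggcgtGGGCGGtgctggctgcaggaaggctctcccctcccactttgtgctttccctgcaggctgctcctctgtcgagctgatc
HPGD: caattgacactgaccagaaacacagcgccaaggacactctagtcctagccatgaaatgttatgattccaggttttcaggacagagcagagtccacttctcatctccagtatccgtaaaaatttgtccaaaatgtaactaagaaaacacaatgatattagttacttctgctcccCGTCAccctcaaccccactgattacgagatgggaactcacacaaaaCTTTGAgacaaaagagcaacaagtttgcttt
PTGS2: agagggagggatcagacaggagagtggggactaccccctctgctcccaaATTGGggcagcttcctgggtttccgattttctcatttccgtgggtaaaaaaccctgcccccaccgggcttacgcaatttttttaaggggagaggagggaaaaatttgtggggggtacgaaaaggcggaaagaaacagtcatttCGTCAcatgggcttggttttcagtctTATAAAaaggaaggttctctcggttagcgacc
TATAAA lay 32 to 27 bases upstream of the PTGS2 start and, on the opposite strand, 208 to 203 bases upstream of the PTGS1 start. It occurs in 10.7% of the 35116 RefSeq windows of this length. CTTTGA lay 31 to 26 bases upstream of the HPGD start and 250 to 245 bases upstream of the PTGES start, and occurs in 11.2% of windows. CGTCA was found in the PTGS2 and HPGD windows (21.2% of all windows), GGGCGG once in the PTGS1 window and at 2 places in the PTGES window (42.6%), and CCAAT in the PTGS2 window alone of these (32.0%). G and C made up 49.6% of the PTGS1 window, 61.2% of PTGES, 42.0% of HPGD and 50.4% of PTGS2. The RefSeq start of PTGS1 lies 491 bases from the start of the counted transcript, against 5 bases for PTGES and HPGD and 4 for PTGS2. These matches describe the letters and were not set against binding data.

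In the first step of the pathway, PLA2G4A (chromosome 1, 186828953 to 186988981, plus strand, GRCh38), the cytosolic phospholipase that frees arachidonate, had 0 reads in both knockout-labelled libraries, 1 in wild-type RNA and none in wild-type RPF. It was at or under the limit of 3 counts everywhere, so no difference was detectable at this depth.

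The 2 cyclooxygenases were far apart. PTGS1 (ENST00000362012, 11 exons, chromosome 9, 122371024 to 122395703, plus strand), the constitutive enzyme known from platelets and gastric mucosa, had 240 reads in knockout-labelled RNA and 8 in wild-type RNA. Its footprints numbered 102 in the knockout-labelled library and 11 in the wild-type library. PTGS1 was thus high in both knockout-labelled libraries and low in both wild-type ones. The RNA ratio was 31.4-fold (log2 change 4.97, 95% counting interval 4.06 to 6.29) and the footprint ratio 8.91-fold (3.16, 2.31 to 4.26). PTGS2 (chromosome 1, 186671791 to 186680427, minus strand), the inducible enzyme, had 0 reads in knockout-labelled RNA and 3 in wild-type RNA, and 0 footprints in either genotype. Its floor of 3 counts was 0.608 CPM (reads scaled to the library total) in knockout-labelled RNA and 0.540 in wild-type RNA. PTGS2 was therefore not detectable above the floor in any library, and no fold is given.

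Among the terminal prostaglandin E synthases, only PTGES moved past the threshold, and only in footprints. PTGES (chromosome 9, 129738331 to 129753047, minus strand) encodes the membrane-bound enzyme that is often induced together with PTGS2. It had 80 reads in knockout-labelled RNA and 66 in wild-type RNA, a ratio of 1.34 with an interval that includes no change (log2 0.43, −0.06 to 0.92). It had 58 footprints in the knockout-labelled library and 11 in the wild-type library, which was 5.08-fold higher (2.35, 1.45 to 3.48). PTGES RNA was thus close in the 2 genotypes while its footprints were several times more numerous in the knockout-labelled cells.

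PTGES2 (chromosome 9, 128120693 to 128128462, minus strand), described as a second membrane-associated synthase, differed by less than counting error in both measurements. It had 179 RNA reads in knockout-labelled cells and 190 in wild type (log2 change 0.07, −0.24 to 0.37). Its footprints were 214 in knockout-labelled cells and 218 in wild type (−0.03, −0.31 to 0.25). PTGES3 (chromosome 12, 56663343 to 56688300, minus strand), which encodes p23, a co-chaperone of HSP90 also assigned cytosolic synthase activity, was by far the most abundant member. It had 2442 RNA reads in the knockout-labelled library and 3822 in wild type, 1.41-fold lower (−0.49, −0.57 to −0.42), and 2854 and 3068 footprints in the same order (−0.10, −0.18 to −0.03). Both PTGES3 intervals lay below 0 and both changes were short of 2-fold. PTGES3 has processed pseudogenes in the annotation, and how reads shared with them were counted is not given in the sources used here.

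Breakdown of prostaglandins begins with HPGD (ENST00000296522, 7 exons, chromosome 4, 174490177 to 174522898, minus strand), the dehydrogenase that oxidises and so inactivates prostaglandin E. HPGD had 25 reads in knockout-labelled RNA and 141 in wild-type RNA, 5.00-fold lower (log2 −2.32, −3.02 to −1.72). It had 9 footprints in the knockout-labelled library and 230 in the wild-type library, 24.3-fold lower (−4.60, −5.82 to −3.73). HPGD was low in both knockout-labelled libraries, and the footprint difference was the larger. PTGR1 (chromosome 9, 111562967 to 111599407, minus strand), the reductase that acts on the product of HPGD, had 62 RNA reads in knockout-labelled cells and 98 in wild type (−0.51, −0.99 to −0.04). Its footprints were 113 in knockout-labelled cells and 145 in wild type (−0.36, −0.73 to 0.00443). Neither PTGR1 ratio reached 2-fold, and the interval for RNA alone excluded no change.

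The receptors had few footprints in either genotype. PTGER4 (chromosome 5, 40679498 to 40693735, plus strand), the EP4 receptor, had 77 RNA reads in knockout-labelled cells and 54 in wild type (1.58-fold, log2 0.66, 0.14 to 1.19). It had 9 footprints in knockout-labelled cells and 3 in wild type, below the minimum of 50 reads over both libraries. PTGER2 (chromosome 14, 52314395 to 52328606, plus strand), the EP2 receptor, had 2 RNA reads in knockout-labelled cells and 14 in wild type, and 2 and 3 footprints in the same order. PTGER4 was the receptor with more RNA reads in both genotypes, and neither receptor's footprints could be compared at this depth.

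**Figure D1:**
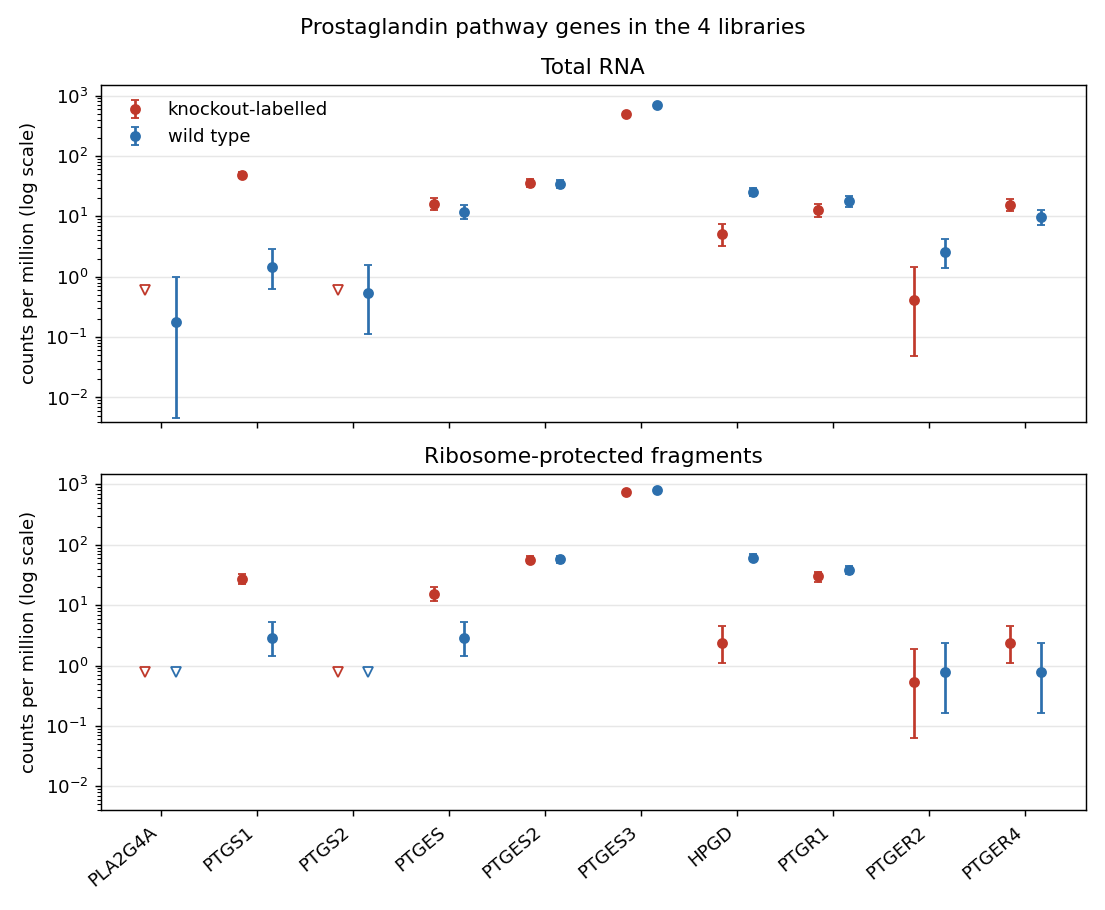
Levels of the 10 genes in CPM on a log axis, with total RNA above and ribosome-protected fragments below; circles are single libraries, bars are exact 95% Poisson intervals of counting error, and open triangles mark genes with 0 reads at the floor of 3 counts. PTGS1 sat at 48.7 CPM in knockout-labelled RNA and 1.44 in wild-type RNA, HPGD at 2.38 CPM in knockout-labelled footprints and 60.8 in wild-type footprints, and PTGES3 lay above all other members in every library.

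A minimum of 50 reads, summed over the 2 genotypes, was met by 7 of the 10 members in RNA and 6 in footprints. In RNA, 1 was called higher (PTGS1) and 1 lower (HPGD) at 2-fold with an interval excluding no change, beside 14.7% of all 10875 genes measured (6.39% higher and 8.35% lower). In footprints 2 were higher (PTGS1, PTGES) and 1 lower (HPGD), beside 18.9% of 9794 genes (9.00% higher and 9.87% lower). Since the pathway was chosen by such values, nothing is read from these shares. The median RNA change was 0.07 over the 7 members measured and −0.01 over all genes measured, and the median footprint change was −0.07 over 6 members and −0.0007 over all genes. By rank, 2 of 10875 genes had a larger RNA rise than PTGS1, which had 8 RNA reads in wild type. In footprints 9 of 9794 genes had a lower change than HPGD, which had 9 footprints in knockout-labelled cells. These ranks come from the values used in the choice, so nothing is read from them either.

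**Figure D2:**
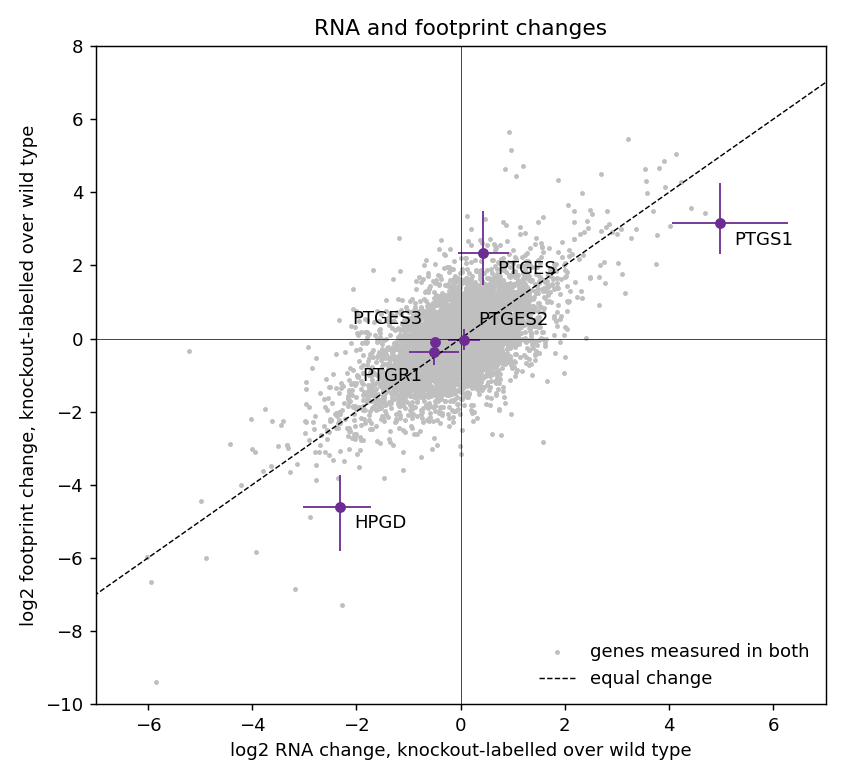
Log2 RNA change (x axis) against log2 footprint change (y axis), knockout-labelled over wild type, for the genes with at least 50 reads in both kinds (grey) and for the 6 members measured in both (purple, bars are 95% counting intervals). PTGS1 (4.97, 3.16) and HPGD (−2.32, −4.60) lie below the dashed line of equal change and PTGES (0.43, 2.35) above it, while PTGES2, PTGES3 and PTGR1 lie near the origin.

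Translational efficiency (TE) is the footprint level over the RNA level, and its change was the RPF change minus the RNA change. TE was lower in the knockout-labelled cells for PTGS1 and HPGD and higher for PTGES. The TE change was −2.28 for HPGD (−3.40 to −1.16), −1.82 for PTGS1 (−3.14 to −0.50) and 1.92 for PTGES (0.89 to 2.94). Of 6 members measured, 1 was called higher and 2 lower, beside 12.7% of all 9598 genes (6.46% higher and 6.28% lower). TE changes are built from the RNA and footprint values used in the choice of the pathway, so nothing is read from this share. The PTGS1 value rests on 8 RNA reads and 11 footprints in wild type, and the PTGES value on 11 footprints in wild type. The HPGD value rests on 25 RNA reads and 9 footprints in knockout-labelled cells. TE changes of PTGES2 (−0.09) and PTGR1 (0.15) had intervals that include no change, and PTGES3 had 0.39 (0.29 to 0.49), short of 2-fold. PTGS1 therefore had more footprints in the knockout-labelled cells, though fewer per RNA read.

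Within each genotype, log2 TE from CPM values had a median of 0.22 over 7687 genes in knockout-labelled cells and 0.21 over 7884 in wild type. HPGD stood at −1.04 (−2.11 to 0.03) in knockout-labelled cells and 1.26 (0.96 to 1.56) in wild type, where it was above 91.6% of genes. PTGES stood at −0.08 (−0.56 to 0.41) in knockout-labelled cells and −1.98 (−2.88 to −1.08) in wild type. HPGD in knockout-labelled cells and PTGES in wild type were under 50 reads in at least 1 library, so neither value was ranked. The reductase PTGR1 was well translated in both, at 1.25 in knockout-labelled cells and 1.12 in wild type. PTGER4 had the lowest TE of any member with over 50 RNA reads, at −2.64 (−3.62 to −1.67) in knockout-labelled cells and −3.41 (−4.97 to −1.85) in wild type. The PTGER4 values rest on 9 and 3 footprints in the same order, and its wild-type interval overlaps that of PTGES. PTGS1 in knockout-labelled cells was at −0.85, above 16.2% of genes, and in wild type its interval ran from −0.29 to 2.27.

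**Figure D3:**
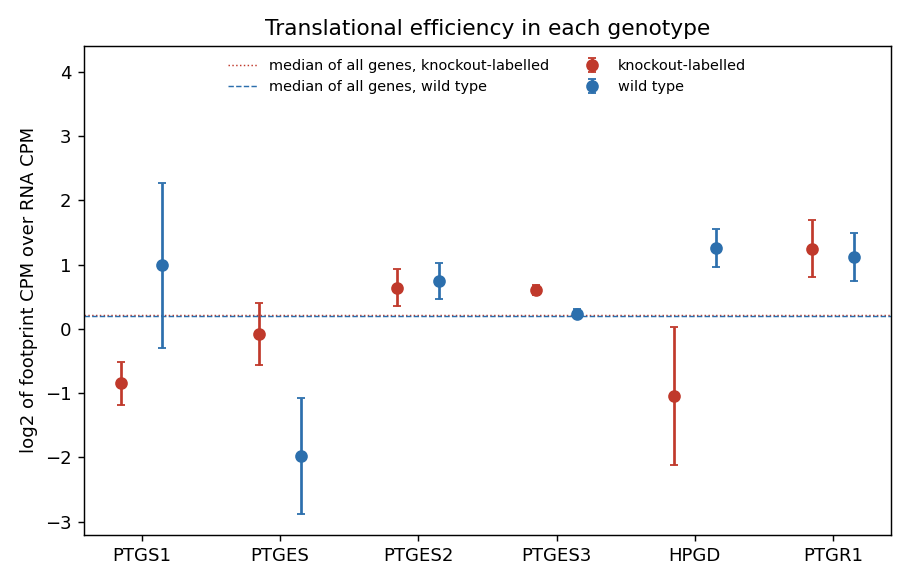
Log2 of footprint CPM over RNA CPM for the 6 members measured in both kinds, in knockout-labelled and wild-type cells, with 95% counting intervals and the median of all genes as horizontal lines. HPGD is at −1.04 in knockout-labelled cells and 1.26 in wild type and PTGES at −0.08 and −1.98 in the same order, without overlap of the intervals. The intervals of PTGS1 (−0.85 and 0.99) and PTGES3 (0.61 and 0.24) do not overlap either, whereas those of PTGES2 and PTGR1 overlap.

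Ratios of 2 genes within a library do not depend on how libraries are scaled. For each HPGD read there were 9.60 PTGS1 reads in knockout-labelled RNA and 0.0567 in wild-type RNA. In footprints there were 11.3 in the knockout-labelled library and 0.0478 in the wild-type one. The balance of reads between PTGS1 and HPGD was thus inverted in both measurements. This pair joins the measured members with the largest rise and the largest fall, so the inversion restates the changes given above. It does not extend to the synthases PTGES2 and PTGES3 or the reductase PTGR1, whose changes stayed short of 2-fold. PTGES reads per PTGES2 read were 0.447 in knockout-labelled RNA and 0.347 in wild-type RNA, with 0.271 and 0.0505 footprints in the same order. PTGES3 reads per read of its partner HSP90AB1 were 0.729 in knockout-labelled RNA and 0.634 in wild-type RNA, with 0.323 and 0.330 for footprints. PTGES3 alone held 78.6% of the members' reads in knockout-labelled RNA and 86.9% in wild-type RNA, so sums over the members mostly follow it.

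In CPM per kilobase of transcript, PTGES3 RNA stood at 258 in knockout-labelled cells and 359 in wild type, and PTGES2 came next at 15.6 in knockout-labelled cells and 14.7 in wild type. In knockout-labelled RNA, PTGR1 (10.3), PTGS1 (9.69) and PTGES (9.14) followed with overlapping counting intervals, and then PTGER4 (4.06), HPGD (1.67) and PTGER2 (0.170). In wild-type RNA, PTGR1 (14.4), HPGD (8.39), PTGES (6.70), PTGER4 (2.53), PTGER2 (1.06) and PTGS1 (0.287) followed. There the counting intervals of PTGES2 and PTGR1 overlapped, as did those of HPGD and PTGES, so their order is not resolved. PTGS1 thus stood above HPGD in knockout-labelled RNA and below it in wild-type RNA. In CPM per kilobase of coding sequence, footprints of HPGD stood at 2.98 in knockout-labelled cells and 76.2 in wild type, where they were second to those of PTGES3 (1690). The region that was counted is not given, and per coding kilobase the RNA order puts PTGES above PTGES2 in knockout-labelled cells and HPGD second in wild type.

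Other genes around the pathway were taken as 8 lists of 147 distinct genes. In RNA 10 of the 91 measured were higher and 8 lower, together 19.8%, beside 14.7% of all genes. In footprints 11 of 85 were higher and 10 lower (24.7%, beside 18.9%), and for TE 3 of 84 were higher and 2 lower (5.95%, beside 12.7%). The arachidonate release list holds phospholipases and lipases, acyl chain remodelling enzymes and ANXA1, and 3 of its 14 measured genes were higher in RNA and 1 lower, with 2 of 13 higher in footprints and 2 lower. ANXA1, which is no release enzyme, is among those counted as higher in both. MGLL, the lipase that splits monoacylglycerols and can yield arachidonate, was 9.65-fold higher in RNA (525 reads in knockout-labelled cells and 60 in wild type) and 6.72-fold higher in footprints (171 and 25). ANXA1, the annexin known as an inhibitor of phospholipase action, was 2.41-fold higher in RNA and 2.64-fold higher in footprints. ABHD6, another monoacylglycerol lipase, was 2.81-fold lower in RNA and 3.11-fold lower in footprints, and PLA2G6, a calcium-independent phospholipase, had 9 footprints in knockout-labelled cells and 58 in wild type. DAGLA, a diacylglycerol lipase, was called higher in RNA (35 and 16 reads), and PLA2G16, a phospholipase of adipose tissue, had a TE change of 1.22 (0.73 to 1.72).

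Of the other terminal synthases, 1 of 5 measured was higher in RNA and in footprints. This was PTGDS, the lipocalin-type prostaglandin D synthase, with 108 RNA reads in knockout-labelled cells and 24 in wild type (4.92-fold) and 192 and 26 footprints in the same order (7.26-fold). Among breakdown and transport genes 1 of 6 was lower in RNA and 2 of 6 in footprints, with none higher. Over all genes, 6.39% were higher and 8.35% lower in RNA, and 9.00% higher and 9.87% lower in footprints. With at most 6 genes measured in each of these lists, no direction is read from their counts. The carbonyl reductase CBR4 was 2.85-fold lower in RNA and 3.31-fold lower in footprints. The RNA count of this list rests on CBR4 alone, and whether CBR4 acts on prostaglandins was not examined here. The prostaglandin reductase ZADH2 had 119 and 131 RNA reads but 37 and 80 footprints, a TE change of −1.12 (−1.78 to −0.45). Of the other prostanoid receptor genes only PTGFRN, a receptor-associated membrane protein, was measured, and it was called in neither direction. PTGER1, PTGDR and PTGFR had no reads in any of the 4 libraries. In the lipoxygenase branch 2 of 5 genes were higher in RNA and footprints, both of them epidermal lipoxygenases. ALOX12B had 207 RNA reads in knockout-labelled cells and 59 in wild type and 278 and 44 footprints, and ALOXE3 had 127 and 60 RNA reads and 336 and 45 footprints, with a TE change of 1.66 (1.03 to 2.29).

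In the cyclic AMP list, which follows the signal of EP2 and EP4, 3 of 29 genes were higher in RNA and 4 lower, and 5 of 25 were higher in footprints and 4 lower. Of all genes, 6.39% were higher in RNA and 8.35% lower, with 9.00% and 9.87% in footprints. The genes named below are single cases, and a change of the whole signal was not tested. PDE4D, a phosphodiesterase that degrades cyclic AMP, had 218 RNA reads in knockout-labelled cells and 998 in wild type (4.11-fold lower) and was 6.16-fold lower in footprints. RAPGEF3, the cyclic AMP sensor EPAC, was 7.78-fold lower in RNA and 4.85-fold lower in footprints. AREG, an EGF receptor ligand known as a target of prostaglandin E, was 2.92-fold higher in RNA and 3.09-fold higher in footprints, and the adenylyl cyclase ADCY7 was 2.22-fold and 2.51-fold higher. ADCY1, another cyclase, had 1115 RNA reads in knockout-labelled cells and 330 in wild type, yet 1 and 0 footprints. The beta-arrestin gene ARRB1 had 110 and 136 RNA reads but 49 and 220 footprints, a TE change of −2.00 (−2.58 to −1.43). The list of HSP90 partners stayed short of 2-fold for all 16 genes in RNA, footprints and TE, with medians of 0.02, −0.04 and 0.11. Of RNA-binding proteins described on PTGS2 mRNA, ZFP36L1, a decay factor of AU-rich transcripts, was 2.07-fold higher in RNA, HNRNPD 2.11-fold lower and RBM3, a cold-inducible protein, 2.98-fold lower, and 12 of 15 were called in neither direction. The list median was −0.54 in RNA, beside −0.01 over all genes, and −0.28 in footprints.

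**Figure D4:**
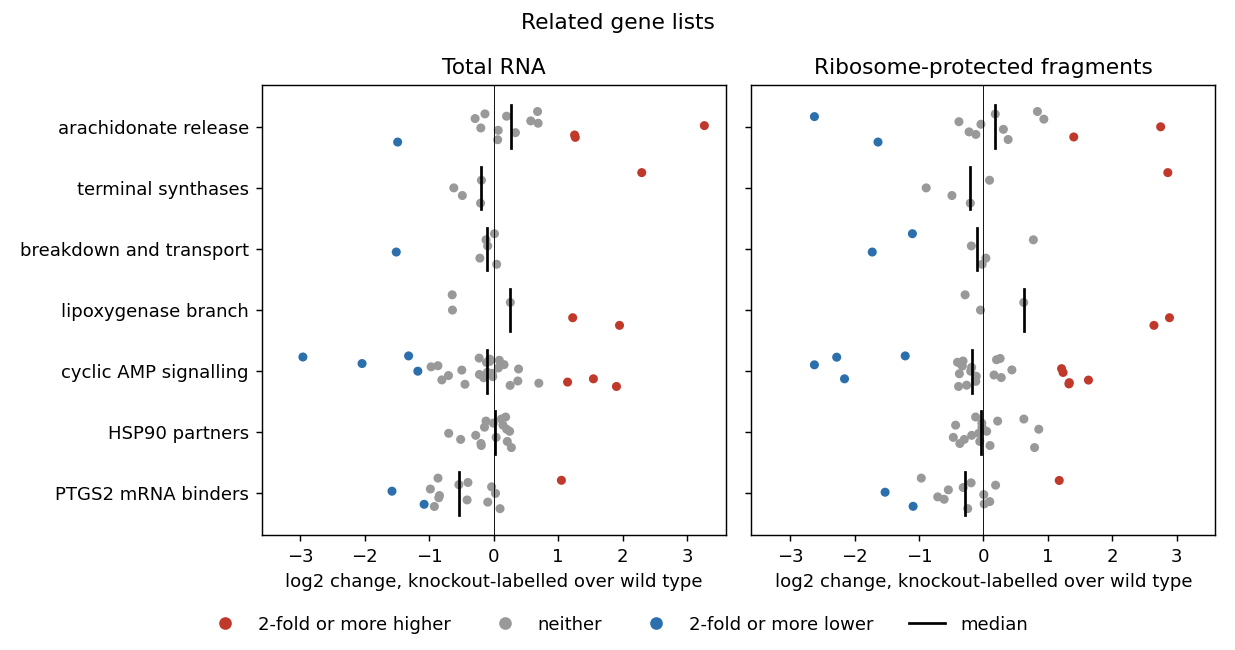
Log2 change of each measured gene in 7 related lists, RNA on the left and footprints on the right, with points coloured by call and a bar at each list's median. HSP90 partners cluster around 0, and MGLL at 3.27 in RNA and ALOXE3 at 2.89 in footprints are the highest points of their panels.

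PTGS1 is also known from tuft cells and platelets, so markers of other cell types were counted beside it. In bulk samples, fewer cells of a type and less RNA per cell cannot be told apart. Of 11 tuft markers, 10 were under 50 reads in every library, and POU2F3 and TRPM5, which define the lineage, were at 0 in knockout-labelled RNA with 2 and 3 reads in wild-type RNA. The exception was DCLK1, with 1214 RNA reads in knockout-labelled cells and 490 in wild type and 486 and 180 footprints, which made nearly all of the summed tuft level of 246 CPM in knockout-labelled and 92.8 CPM in wild-type RNA. All 8 platelet markers were under 50 reads, with PF4 and PPBP at 0 in every library and sums of 2.03 CPM in knockout-labelled RNA and 5.76 in wild-type RNA. Most of these RNA reads were from GP6 (6 in knockout-labelled cells and 15 in wild type) and ITGA2B (0 and 10). All 12 leukocyte markers were under 50 reads, with PTPRC and CD3E at 0 throughout and sums of 3.85 and 3.96 CPM in RNA. Those close sums hold opposite differences, since CSF1R had 16 RNA reads in knockout-labelled cells and 1 in wild type, and CD14 had 0 and 14. Fibroblast markers summed to 13.0 CPM in knockout-labelled RNA and 2.52 in wild-type RNA with DCN at 0 in all 4 libraries, and endothelial markers to 9.73 and 11.0 CPM in the same order. Most fibroblast marker reads in RNA were from COL6A3 (33 in knockout-labelled cells and 2 in wild type) and COL1A1 (26 and 10). PECAM1, the only endothelial marker with 50 RNA reads over both genotypes, had 34 in each and 4 and 0 footprints. In footprints the sums were 129 CPM in knockout-labelled cells and 51.3 in wild type for tuft markers, 1.32 and 0.793 for platelet markers, 5.03 and 5.29 for leukocyte markers, 7.15 and 1.32 for fibroblast markers, and 12.7 and 1.06 for endothelial markers. The endothelial footprints came mostly from CDH5 (30 reads in knockout-labelled cells and 0 in wild type) and VWF (13 and 0). In RNA the CDH5 difference was in the other direction, with 4 reads in knockout-labelled cells and 18 in wild type, and VWF had 7 and 6. The part of these markers in the PTGS1 and HPGD values was not tested.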

How the data were processed

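Total RNA and ribosome-protected fragments were sequenced from knockout-labelled and wild-type SW480 cells, with 1 library of each. Per the labels' protocols, fragments were size-selected (18 to 34 nt for RPF, 18 to 50 nt for RNA), linkers carried random identifiers, and amplification took 15 cycles of PCR. Tools named in the submitters' processing notes are HISAT2 2.1.0, Bowtie 1.1.2 and cutadapt 1.10, with build GRCh38; not given in the sources used here are their roles, the annotation, the counted region, strand use, multi-mapping and identifier collapsing. Each deposited file gives 1 raw, whole-number read count per gene symbol. Coordinates are from GENCODE release 29 (GRCh38), in which no exon of another gene overlaps an exon of the members' counted transcripts.

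Libraries of a kind were scaled by TMM in edgeR 4.0.16 (R 4.3.3), with a knockout-labelled to wild-type ratio of 0.900 for RNA and 1.00 for RPF. Log2 ratios used a prior count of 0.5. RNA and RPF intervals are exact conditional (Clopper-Pearson) 95% intervals, and TE intervals come from the sum of reciprocal counts. Reads after PCR are not molecules, so intervals and floors cover counting error only. A gene was measured where the 2 genotypes together had 50 reads or more (in both kinds for TE) and called at 2-fold with an interval excluding no change. With 1 library per group and 0 residual degrees of freedom no p-value is given. The computation was tested on simulated counts. Other steps ran under Python 3.11.15 with SciPy 1.17.1 and pandas 2.3.3.

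Members and lists were chosen with earlier results of these data known. Named genes are all members, IGF2BP1, up to 6 called genes of each list ranked by the interval bound nearest to no change, and markers with at least 50 RNA reads; further markers under that minimum were named after their values were seen. Of the genes in the pathway and marker lists, 4 are not analysed here. Alternatives were other scalings, read minimums, prior count and fold.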

Additional observations from a re-analysis of the deposited data

How the results depend on the processing

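All 76 recomputed changes of single members stayed inside their counting interval and kept their sign under DESeq2 size factors, library totals, totals without PLCG2 and the MTRNR2L genes and a prior count of 2, moving by at most 0.23; a read minimum alters only which genes are counted. A minimum of 200 reads left 1 member called in RNA (PTGS1), 1 in footprints (HPGD) and 0 in TE, against 2, 3 and 3, since fewer genes are then measured. In RNA 3 members were called at 1.5-fold, with PTGER4 added, and 3 with no minimum, with PTGER2 added as lower. The minimum of 200 reads left 9, 11 and 1 related genes called in RNA, footprints and TE, against 18, 21 and 5 (13.2%, 16.4% and 1.72% of those measured, beside 10.6%, 13.8% and 5.25% of all genes). With no minimum, 10 related genes were called in TE (8.70%, beside 15.7%). At 1.5-fold the related genes called were 34 in RNA, 32 in footprints and 21 in TE (37.4%, 37.6% and 25.0%, beside 34.0%, 39.1% and 29.6%). The median wild-type log2 TE of the 4 members with 50 reads in each library was 0.93, and 0.73 with totals without PLCG2 and the MTRNR2L genes. No paired analysis was possible because each group has 1 library, which also allows no value without a replicate. Depth limits PLA2G4A, PTGS2, PTGER2 and the footprints of PTGER4, which could not be compared.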

Other observations

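Several genes of the lists fell under the minimum of 50 reads and were named after their values were seen. ALOX5AP, the protein that presents arachidonate to the leukotriene-forming lipoxygenase, had 10 reads in knockout-labelled RNA and 0 in wild-type RNA, and 17 and 0 footprints in the same order, while the lipoxygenase gene ALOX5 itself was at 0 in all 4 libraries. The thromboxane receptor gene TBXA2R had 8 RNA reads in knockout-labelled cells and 12 in wild type, with 15 and 0 footprints. GGT5, which trims the leukotriene glutathione conjugate, had 2 footprints in knockout-labelled cells and 31 in wild type. PTGIS, the prostacyclin synthase gene, had 4 RNA reads in knockout-labelled cells and 15 in wild type, with 9 and 0 footprints.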
